A study of Cricetulus griseus with 6 samples.

Results

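Pertuzumab given alone to CHO-K6 cells was described by 2 of the 6 arrays of this series, namely the pertuzumab-treated CHO-K6 array and the untreated CHO-K6 array, across all 29700 transcripts of the main table. CHO-K6 is a line of Chinese hamster ovary cells that stably overexpresses human HER2, and CHO-K1 is its wild type parent. The CHO-K6 arrays were pertuzumab, trastuzumab, trastuzumab + pertuzumab, and untreated, and the CHO-K1 arrays were trastuzumab + pertuzumab and untreated. Each antibody was used at 10 µg/mL in medium with serum for 24 h after a day in low serum, and the untreated dishes had no antibody at all, since none with an unrelated IgG was among these samples. Each condition had 1 array, so no spread between replicates and no p-value can be given, and every difference below is a difference between single arrays. RNA was taken from whole dishes, so a lower signal in every cell and a low signal in some of the cells cannot be told apart.

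HER2 (ERBB2) is a receptor tyrosine kinase with no known ligand of its own, which signals by pairing with other HER2 molecules or with EGFR, HER3 and HER4. Signals from these pairs run mainly through the RAS-ERK and PI3K-AKT cascades, which drive cyclins and restrain cell cycle inhibitors. Pertuzumab is an antibody to the dimerization arm of HER2, while trastuzumab binds a part of the receptor close to the membrane. Roles given below are those known of the human or mouse genes.

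The labels call both lines epithelial. None of 7 measured epithelial markers, among them Cdh1, Epcam, Krt8 and Krt18, had a mean log2 signal at or above 6 on the pertuzumab and untreated arrays, against 10 of 13 mesenchymal markers. Vim, the main intermediate filament of mesenchymal cells, had a log2 signal of 13.25 on the pertuzumab array and 13.30 on the untreated array. The epithelial cadherin Cdh1 had 6.01 on the pertuzumab array and 5.86 on the untreated array. The transcript annotated as Erbb2, the gene of the receptor itself, had log2 signals of 9.21 with pertuzumab, 9.01 untreated, 8.80 with trastuzumab and 9.01 with trastuzumab + pertuzumab in CHO-K6, and 8.64 with trastuzumab + pertuzumab and 8.50 untreated in CHO-K1. Erbb2 was thus higher in all 4 CHO-K6 arrays than in both CHO-K1 arrays and highest with pertuzumab, by 0.20 over the untreated array. The array was designed for hamster genes, and how far its Erbb2 probes read the human transgene was not tested.

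More transcripts were lower than higher with pertuzumab, and most of the lower ones have no gene name. A transcript was called at a difference of 2-fold or more. Of 29700 transcripts, 19 (0.064%) were higher and 157 (0.529%) lower with pertuzumab than in untreated CHO-K6. Of 12426 transcripts with no symbol 14 were higher and 131 lower, and of 16481 with 1 symbol 5 were higher and 26 lower. Among transcripts with a mean log2 signal at or above 6 1 was higher and 89 were lower, and 75 of these 89 had no symbol.

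Genes were then taken 1 transcript each, the brightest, and called at 1.5-fold (0.585 on the log2 scale) among the 9073 genes with a mean log2 signal at or above 6 on the 2 arrays. With pertuzumab 30 genes (0.331%) rose and 152 (1.68%) fell, 9 of them by 2-fold or more and none of the 30 by as much. Counts of calls in the lists below are to be read beside these shares, and no call in a short list is near them. The median over all 9073 genes was 0.06, and 59.2% of them were above 0 and 39.5% below. The lower calls thus stood against a majority of genes on the other side of 0. Genes whose symbol here is a locus number (LOC) made up 36 of the 152 lower genes (23.7%) and 7 of the 30 higher genes (23.3%), against 8.75% of all 9073. The lowest of all was LOC103159827, with log2 signals of 7.73 with pertuzumab, 9.47 untreated, 9.29 with trastuzumab and 9.14 with the combination. LOC103164274, with 7.11 on the pertuzumab array and 8.52 on the untreated array, came next.

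**Figure D1:**
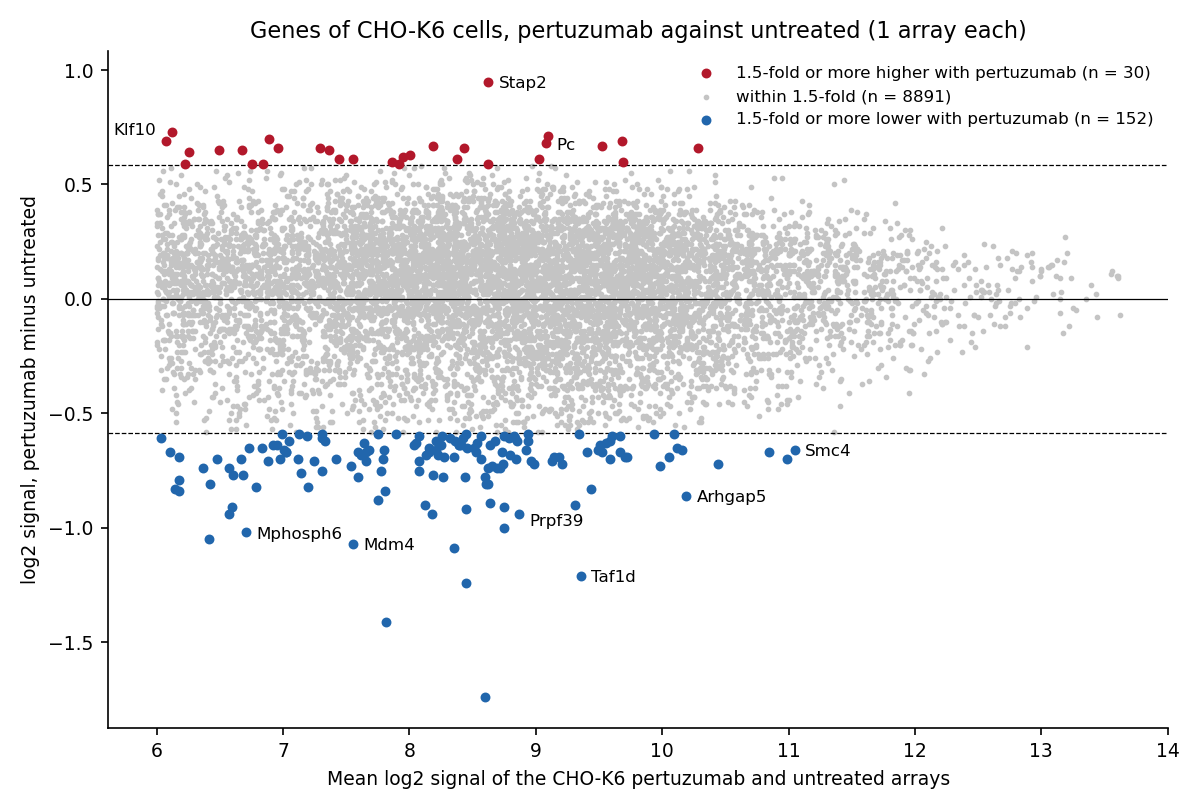
Difference in log2 signal between pertuzumab and untreated CHO-K6 (vertical axis) against the mean log2 signal of both arrays (horizontal axis) for the 9073 genes with a mean of 6 or more, 1 point a gene. Red points are the 30 genes at least 1.5-fold higher with pertuzumab and blue points the 152 genes at least 1.5-fold lower, with dashed lines at 1.5-fold. The lower calls spread over most signals below about 11 and reach -1.74, whereas the higher calls end at 0.95.

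Among named genes, the largest fall was that of Taf1d, which encodes a subunit of the selectivity factor of RNA polymerase I and hosts small nucleolar RNAs in its introns. Taf1d had log2 signals of 8.75 with pertuzumab, 9.96 untreated, 9.82 with trastuzumab and 9.69 with trastuzumab + pertuzumab in CHO-K6, and 8.66 with trastuzumab + pertuzumab and 9.08 untreated in CHO-K1. The pertuzumab array lay below the other CHO-K6 arrays by about 1 log2 unit or more and close to CHO-K1, and the fall against untreated CHO-K6 was 2.31-fold. The other 29 measured genes of RNA polymerase I and ribosome biogenesis did not go with it. The list had 20 members above 0 and 8 below and a median of 0.035. Taf1d was the single call among its 30 genes, against 1.68% of all genes called lower. Its nearest followers were Nop58, a core protein of box C/D snoRNPs, at -0.38 and Taf1b, another subunit of the same selectivity factor, at -0.25.

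Mdm4, the partner of Mdm2 in holding p53 in check, had 7.02 with pertuzumab, 8.09 untreated, 8.25 with trastuzumab and 7.92 with the combination in CHO-K6, and 6.77 with the combination and 7.20 untreated in CHO-K1. It fell by 1.07 on the log2 scale with pertuzumab, and again the pertuzumab array stood apart from the 3 other CHO-K6 arrays and next to CHO-K1. The 21 measured p53 regulators and targets had a median of -0.13, with 7 above 0 and 13 below. Mdm4 was the single call among the 18 with a mean log2 signal at or above 6, against 1.68% of all genes called lower. Cdkn1a, the p53 target that encodes the cyclin-dependent kinase inhibitor p21, was at the other end. It had 9.41 with pertuzumab, 8.83 untreated, 9.02 with trastuzumab and 9.04 with the combination in CHO-K6, a difference of 0.58 that fell just short of 1.5-fold. Mdm2, the ubiquitin ligase of p53, differed by -0.30 and the death receptor Fas by -0.58.

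Splicing regulators gave the lowest list medians, though these lists, like all the lists here, were chosen with earlier results of these data known. The kinases, cyclin L proteins and other proteins of nuclear speckles, the stores where splicing factors gather, had 24 measured members. Of these 4 were above 0 and 20 below, 6 fell by 1.5-fold or more (against 1.68% of all genes) and none rose, and the median was -0.305, against 0.06 over all 14899 genes. Prpf4b, a kinase that phosphorylates spliceosomal proteins, had 8.29 with pertuzumab, 9.20 untreated, 9.13 with trastuzumab and 9.06 with the combination in CHO-K6. Clk1, the kinase that phosphorylates SR proteins, had 8.49 with pertuzumab, 9.19 untreated, 9.26 with trastuzumab and 9.02 with the combination in CHO-K6. Ccnl1, cyclin L1, had 8.77 with pertuzumab, 9.48 untreated, 9.39 with trastuzumab and 9.34 with the combination in CHO-K6. In each of these 3 genes the pertuzumab array was the lowest of the 4 CHO-K6 arrays and the other 3 lay within 0.24 of each other. Srek1, an SR-related splicing regulator, at -0.74, Zranb2, a zinc finger splicing factor, at -0.65 and Pnisr, an SR-related nuclear protein, at -0.62 completed the calls. The large scaffold proteins of speckles were near 0, with Srrm1 at 0.01 and Srrm2 at 0.06, and Clk3, a relative of Clk1, was 0.21 higher.

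The SR proteins, which bind exons and recruit the splicing machinery, were lower in 9 of 10 members with a median of -0.25, but none reached 1.5-fold. Srsf10 had 7.88 with pertuzumab and 8.41 untreated, Srsf5 had 10.76 with pertuzumab and 11.14 untreated, and Srsf9 was the exception with 8.73 with pertuzumab and 8.51 untreated. The hnRNP proteins, which often oppose SR proteins in the choice of exons, were lower in 19 of 22 members with a median of -0.155 and no call. Hnrnpdl differed by -0.33 and Ptbp3 by -0.39, while the poly(C)-binding protein Pcbp1 was 0.26 higher. Core subunits of the spliceosome behaved otherwise, with 21 members above 0, 20 below and a median of 0.02. Their one call among 41 genes, against 1.68% of all genes called lower, was Prpf39, a protein of the U1 snRNP. Prpf39 had 8.40 with pertuzumab, 9.34 untreated, 9.29 with trastuzumab and 9.14 with the combination in CHO-K6. Subunits of the SF3b complex lay on both sides, with Sf3b1 at -0.26 and Sf3b6 at -0.20 but Sf3b5 at 0.46 and Sf3b4 at 0.40.

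**Figure D2:**
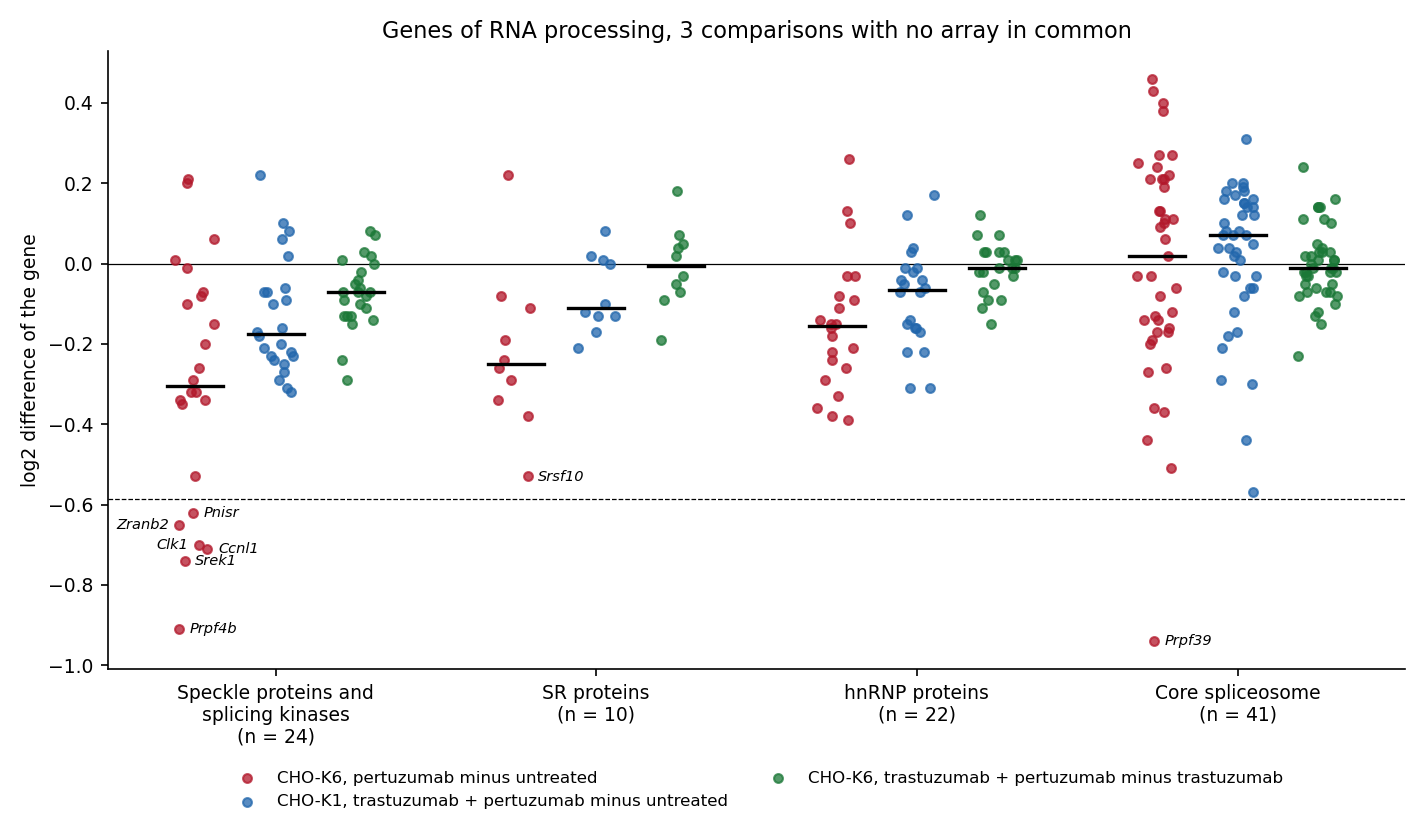
Log2 difference of each measured gene of 4 lists of RNA processing (vertical axis, 1 point a gene, spread sideways for sight) in 3 comparisons that have no array in common, with black bars at the medians and a dashed line at 1.5-fold lower. For pertuzumab against untreated CHO-K6 (red) the medians run from -0.305 for speckle proteins and splicing kinases to 0.02 for the core spliceosome, and the lower points of the speckle list pass the dashed line.

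In the list of nuclear pore and transport proteins 24 of 48 genes were above 0 and 24 below, and the median was 0.00. Among its 47 genes with a mean log2 signal at or above 6, Thoc2 and Thoc1 were called, against 1.68% of all genes. Nup133, a nuclear pore protein, was at 0.41. Among 16 genes of mRNA 3′ end processing none was called and the median was 0.025. Thoc2, the scaffold of the THO complex that couples transcription to export, had 8.86 with pertuzumab, 9.76 untreated, 9.66 with trastuzumab and 9.52 with the combination in CHO-K6. It fell 1.87-fold, and its partner Thoc1 differed by -0.66. Mphosph6, a cofactor of the RNA exosome, had 6.20 with pertuzumab, 7.22 untreated, 7.07 with trastuzumab and 7.12 with the combination in CHO-K6, and 6.83 with the combination and 7.16 untreated in CHO-K1. Here the pertuzumab array was the lowest of all 6 by over 0.6, CHO-K1 included. Dcp2, the enzyme that removes the cap of messenger RNA, differed by -0.70. Mphosph6 and Dcp2 were the 2 calls among 31 genes of mRNA decay, against 1.68% of all genes. Of the 31 genes 19 were below 0 and 12 above, and the median was -0.11. Upf2, an adaptor of nonsense-mediated decay, differed by -0.68, yet Upf1, the helicase of the same pathway, was 0.31 higher, and that list of 14 had 7 members on each side. Ythdc2, an RNA helicase that reads N6-methyladenosine, fell 1.84-fold.

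Several of these genes were read by more than 1 transcript on the array. Of 872 genes with 2 or more transcripts of a mean log2 signal at or above 6, 13 had every such transcript at least 1.5-fold lower with pertuzumab and 1 had every such transcript at least 1.5-fold higher. Naa16, an auxiliary subunit of an N-terminal acetyltransferase, had 4 transcripts that differed by -1.08 to -0.62. Prpf39 had 2 at -1.12 and -0.94, Clk1 had 2 at -1.07 and -0.70, Thoc2 had 2 at -0.90 and -0.73, Upf2 had 2 at -0.68 and -0.66, and Zbtb41, a zinc finger protein, had 3 between -0.74 and -0.67. Stap2, an adaptor protein with a PH and an SH2-like domain, was the gene with every transcript higher, at 0.95 and 0.70. In 41 genes at least 1 transcript was 1.5-fold lower, and in 40 of these every transcript of that signal was below 0.

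Of 47 genes for mitotic kinesins, kinetochore proteins and condensin 30 were below 0 and 17 above, 7 fell by 1.5-fold or more, against 1.68% of all genes, and none rose, with a median of -0.16. The anaphase-promoting complex, which starts the separation of chromosomes, had 12 of 18 genes above 0, where 58.6% of all genes were, and 5 below. Its median was 0.14, which was 0.03 with the trastuzumab array as the reference. Fzr1, an activator of the complex, at 0.60 was its 1 higher call, against 0.331% of all genes. Its lowest members were Cdc27 at -0.46, Fbxo5 at -0.41 and Cdc26 at -0.36. Cenpq, a kinetochore protein at the centromere, had 8.20 with pertuzumab, 9.01 untreated, 8.87 with trastuzumab and 8.79 with the combination in CHO-K6. Knl1, the scaffold to which checkpoint proteins bind, had 7.88 with pertuzumab, 8.66 untreated, 8.65 with trastuzumab and 8.43 with the combination in CHO-K6. The pertuzumab array was the lowest of the 4 for both genes, and for both CHO-K1 with trastuzumab + pertuzumab lay lower still, at 8.07 for Cenpq and 7.46 for Knl1.

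The genes of both condensin ATPases fell. Smc2 had 9.62 with pertuzumab, 10.35 untreated, 10.15 with trastuzumab and 10.07 with the combination in CHO-K6. Smc4 had 10.72 with pertuzumab, 11.38 untreated, 11.28 with trastuzumab and 11.14 with the combination in CHO-K6. Both were lowest with pertuzumab among the 4 CHO-K6 arrays, but CHO-K1 with trastuzumab + pertuzumab was lower, at 9.42 for Smc2 and 10.45 for Smc4. The non-ATPase subunits of condensin varied, with Ncapd2 at 0.10 and Ncaph2 at 0.27 and Ncapg at -0.51. Sgo2, which protects cohesin at centromeres, at -0.66, Cenpk at -0.60 and the kinesin Cenpe at -0.59 were the remaining calls. Other genes of the same list were higher, as the centromere protein Cenpb at 0.41 and Cenpm at 0.29. The 36 Cep genes, which encode centrosomal proteins, were grouped after their values had been seen. Of these 9 lay above 0 and 26 below, where 39.9% of all genes were below, and the median was -0.215. Cep295, Cep290 and Cep112 were the 3 calls among 35 with a mean log2 signal at or above 6, against 1.68% of all genes called lower.

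The lists of cyclins had medians near 0. The list of G2/M cyclins and kinases had 9 members above 0 and 10 below and a median of -0.005. None of its 19 genes with a mean log2 signal at or above 6 was called. Of all genes 1.68% were called lower, so no call in a list this short is near that share. Plk4, the kinase of centriole duplication, was at -0.47 and Ttk, a checkpoint kinase, at -0.42. Plk1 was at 0.19 and Foxm1, a transcription factor of mitotic genes, at 0.19. Cyclins of G1 and S phase with their kinases and inhibitors had 13 members on each side and a median of 0.00. Ccnd1, cyclin D1, had 11.87 with pertuzumab and 11.79 untreated, and Cdkn1b, the inhibitor p27, had 10.33 with pertuzumab and 10.40 untreated. Both differed by less than 0.1. Ccne1, cyclin E1, was 0.38 higher and E2f1, a transcription factor of S phase genes, 0.34 higher. Replication genes had 20 members below 0 and 19 above (median -0.005). Orc4 at -0.61 was the one call among these 40 genes, a share near the 1.68% of all genes called lower. Genes of DNA repair had 26 below and 18 above (median -0.06). Rif1, a regulator of double-strand break repair, at -0.72 and Nbn, a subunit of the MRN complex, at -0.63 were the calls among these 44, against 1.68% of all genes. Fzr1, which directs the anaphase-promoting complex at the end of mitosis, was the single gene of these cell cycle lists called higher at 1.5-fold. Fzr1 had 9.99 with pertuzumab, 9.39 untreated, 9.77 with trastuzumab and 9.66 with the combination in CHO-K6.

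Of 9 measured ERBB receptors and ligands 4 were above 0 and 5 below, and none of the 5 with a mean log2 signal at or above 6 reached 1.5-fold. Of all genes 1.68% were called lower and 0.331% higher, so no call among so few genes is near the share of all genes. Egfr had 5.31 with pertuzumab and 5.21 untreated, under the signal used here for calls, and Erbb3 was not among the measured genes. The ligand epiregulin, Ereg, had 8.73 with pertuzumab, 9.15 untreated, 9.27 with trastuzumab and 9.23 with the combination in CHO-K6, but 6.67 with the combination and 6.70 untreated in CHO-K1. Ereg was thus higher on all 4 CHO-K6 arrays than in CHO-K1, and lowest with pertuzumab among the 4, with a difference of -0.42 from untreated. Areg, amphiregulin, differed by -0.06.

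In the RAS-ERK cascade 11 of 14 genes were above 0 with a median of 0.115, where the adaptor Shc1 was 0.46 higher and Rasa1, which switches RAS off, differed by -0.56. The PI3K-AKT list had a median of 0.20, with 15 members above 0, 9 below and no call, but its mean was 0.0858, and its median was 0.065 with the trastuzumab array as the reference. Its higher members included Akt1 at 0.34, Akt2 at 0.27, Tsc2 at 0.29 and the S6 kinase gene Rps6kb2 at 0.46, and its lower members were Rictor, a subunit of mTORC2, at -0.48, Rps6kb1, the other S6 kinase gene, at -0.44, and the catalytic subunit Pik3ca at -0.31. Immediate early genes, which growth factor signals switch on quickly, were above 0 in 15 of 19 cases with a median of 0.24, which was 0.12 with the trastuzumab array as the reference. Klf10, a TGF-beta-induced repressor, was their one call among 18 genes with a mean log2 signal at or above 6, against 0.331% of all genes called higher. Klf10 had 6.42 with pertuzumab, 5.73 untreated, 5.93 with trastuzumab and 5.86 with the combination in CHO-K6. Of these arrays only the pertuzumab array was above 6, so Klf10 passed the signal filter through that array alone. Ier2, Srf and Ier3 were higher by 0.49, 0.43 and 0.39. Myc had 10.35 with pertuzumab and 10.18 untreated. The feedback phosphatase Dusp1 had 9.97 with pertuzumab and 9.45 untreated, but 10.16 with trastuzumab and 9.87 with the combination, so that here the untreated array was the one apart.

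Of the 63 lists 48 had a median above 0, and in 9 it was 0.15 or more. The median over all 14899 genes was itself 0.06, with 58.6% of them above 0, so a median just above 0 is no rise over all genes. Targets of TGF-beta and BMP were higher in 18 of 21 members with a median of 0.22. Smad6, an inhibitor of BMP signalling, had 7.51 with pertuzumab, 6.94 untreated, 6.91 with trastuzumab and 7.15 with the combination in CHO-K6, and Id3, a BMP target, had 10.36 with pertuzumab, 9.89 untreated, 9.90 with trastuzumab and 10.23 with the combination. Within CHO-K6 the arrays with pertuzumab, alone or combined, were above those without it for both genes, though neither difference reached 1.5-fold. In CHO-K1 Smad6 had 7.85 with the combination and 7.55 untreated, and Id3 had 10.85 with the combination and 10.45 untreated, all above the CHO-K6 pertuzumab array. Id1 and Id2, related BMP targets, were higher by 0.19 and 0.25 with pertuzumab alone, and by 0.33 and 0.35 when trastuzumab + pertuzumab was set against trastuzumab, a pair of other arrays. The whole list had a median of 0.00 in that pair. Skil, a repressor in the same pathway, differed by -0.36 with pertuzumab alone and by -0.29 in that pair, and Tagln, a smooth muscle gene, by 0.38 and -0.22.

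Genes of antigen presentation had 12 members above 0 and 3 below, and the highest median of the 63 lists, 0.245, with no call. Tap1, a subunit of the peptide transporter, had 9.04 with pertuzumab, 8.52 untreated, 8.75 with trastuzumab and 8.74 with the combination in CHO-K6. The inducible proteasome subunits Psmb10, Psmb8 and Psmb9 were higher by 0.48, 0.29 and 0.27, and B2m, the shared light chain of class I molecules, was equal at 11.85 on both arrays. Cholesterol synthesis genes had a median of 0.16 and 10 of 15 members above 0, with Mvd, the decarboxylase of the mevalonate pathway, at 0.50. Mitochondrial ribosomal proteins were above 0 in 47 of 60 members with a median of 0.11, while cytosolic ribosomal proteins were at 0.01. Genes of cell death had a median of 0.08 for the BCL2 family, -0.03 for death receptors, caspases and IAPs and 0.035 for necroptosis. None was called, but these lists had only 11, 15 and 10 genes with a mean log2 signal at or above 6. Of all 9073 genes 1.68% were called lower and 0.331% higher, so no call in lists this short is near the share of all genes. Mcl1, a survival protein of the BCL2 family, differed by -0.20 and Xiap, a caspase inhibitor, by -0.50. The death receptor Fas, at -0.58, fell just short of 1.5-fold, while Tradd of the same list was 0.45 higher.

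Cd46, a membrane regulator of complement, had a brightest transcript at 5.45 with pertuzumab, 6.15 untreated, 6.79 with trastuzumab and 6.14 with the combination in CHO-K6, and 5.47 on both CHO-K1 arrays. The CHO-K6 pertuzumab array thus read like CHO-K1, but this mean signal was below 6 and the gene was not called here. Of 13 measured genes of complement 10 were above 0 and 2 below, where 58.6% of all genes were above 0. Only 4 of the 13 had a mean log2 signal at or above 6, with 3 above 0 and 0 below.

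**Figure D3:**
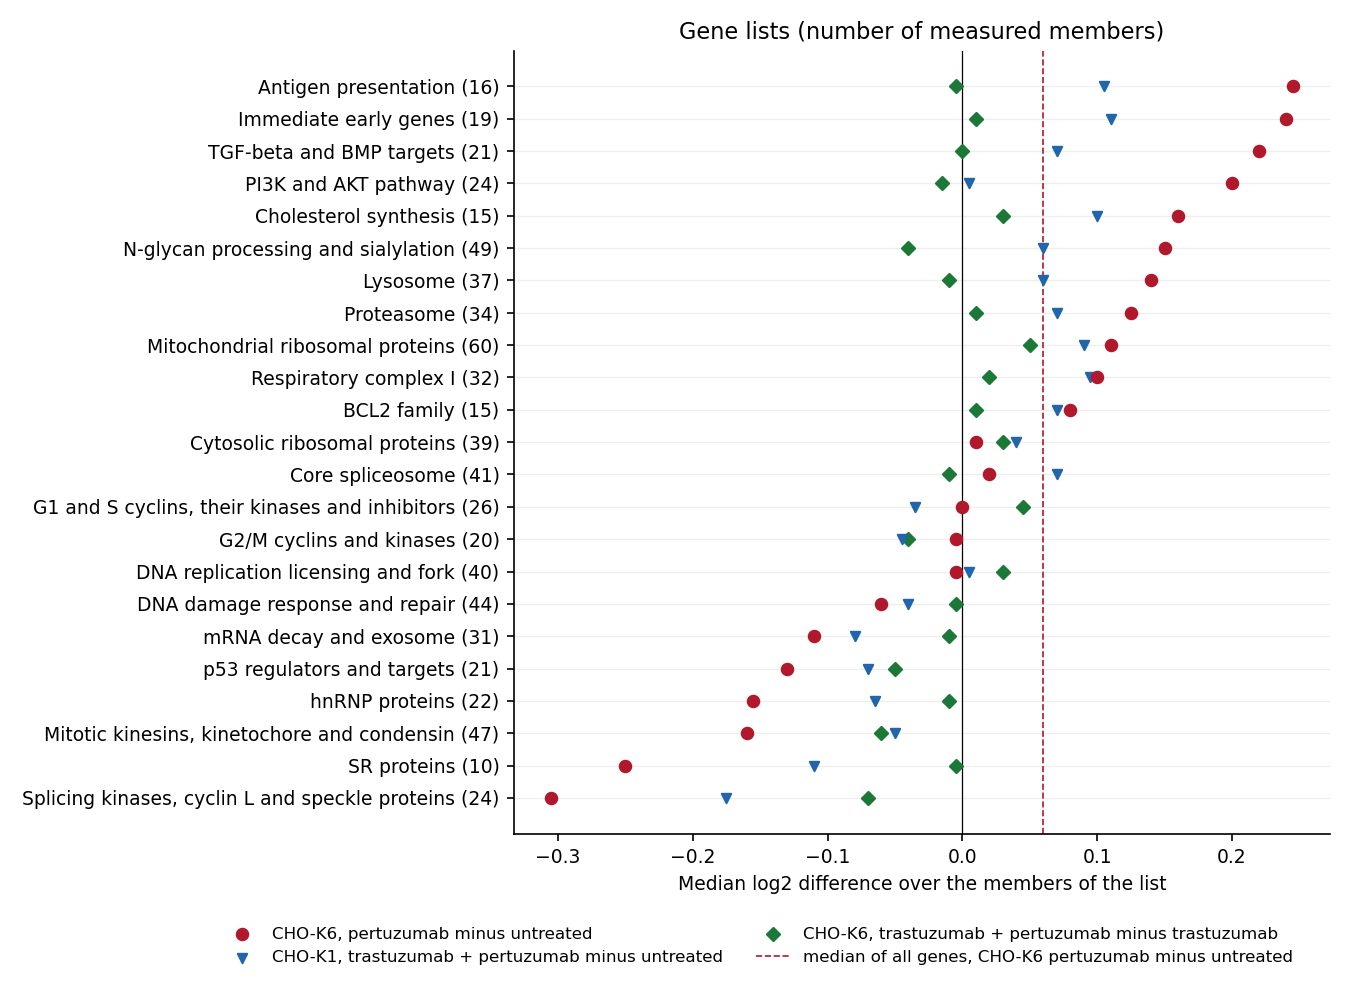
Median log2 difference over the measured members of 23 of the 63 gene lists (horizontal axis), with the number of members in brackets, for pertuzumab against untreated CHO-K6 (red), for the CHO-K1 pair (blue) and for trastuzumab + pertuzumab against trastuzumab in CHO-K6 (green). The red points run from -0.305 to 0.245 around a median of 0.06 for all genes (dashed line), and the green points stay within 0.07 of 0.

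The higher genes were fewer and their changes smaller. Stap2 had 9.10 with pertuzumab, 8.15 untreated, 8.99 with trastuzumab and 8.90 with the combination in CHO-K6, and 8.92 with the combination and 8.78 untreated in CHO-K1. It was 1.93-fold higher, yet untreated CHO-K6 was the single low array of the 6. Lhpp, a phosphatase, followed the same order, with 9.45 with pertuzumab, 8.74 untreated, 9.26 with trastuzumab and 9.19 with the combination in CHO-K6. Others were high with pertuzumab among the CHO-K6 arrays. Alkbh7, a mitochondrial dioxygenase, had 7.24 with pertuzumab, 6.54 untreated, 6.74 with trastuzumab and 6.76 with the combination in CHO-K6, and 7.12 with the combination and 6.98 untreated in CHO-K1. Pc, pyruvate carboxylase, which feeds the TCA cycle, had 9.42 with pertuzumab, 8.74 untreated, 8.94 with trastuzumab and 8.95 with the combination in CHO-K6, and 9.05 with the combination and 8.70 untreated in CHO-K1. Por, the reductase that serves microsomal cytochromes P450, had 9.33 with pertuzumab, 8.72 untreated, 8.91 with trastuzumab and 8.92 with the combination in CHO-K6, and 9.08 with the combination and 8.96 untreated in CHO-K1. In these 3 genes the 3 CHO-K6 arrays other than pertuzumab lay within 0.22 of each other. The alpha-tubulin Tuba4a at 0.65, the sulfotransferase Sult2b1 at 0.65, Cdc42ep4, an effector of the GTPase Cdc42, at 0.61 and the transcription factor Klf12 at 0.64 also rose. Klf12 had 6.58 with pertuzumab and 5.94 untreated, so its untreated signal was under the 6 used here for calls.

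**Figure D4:**
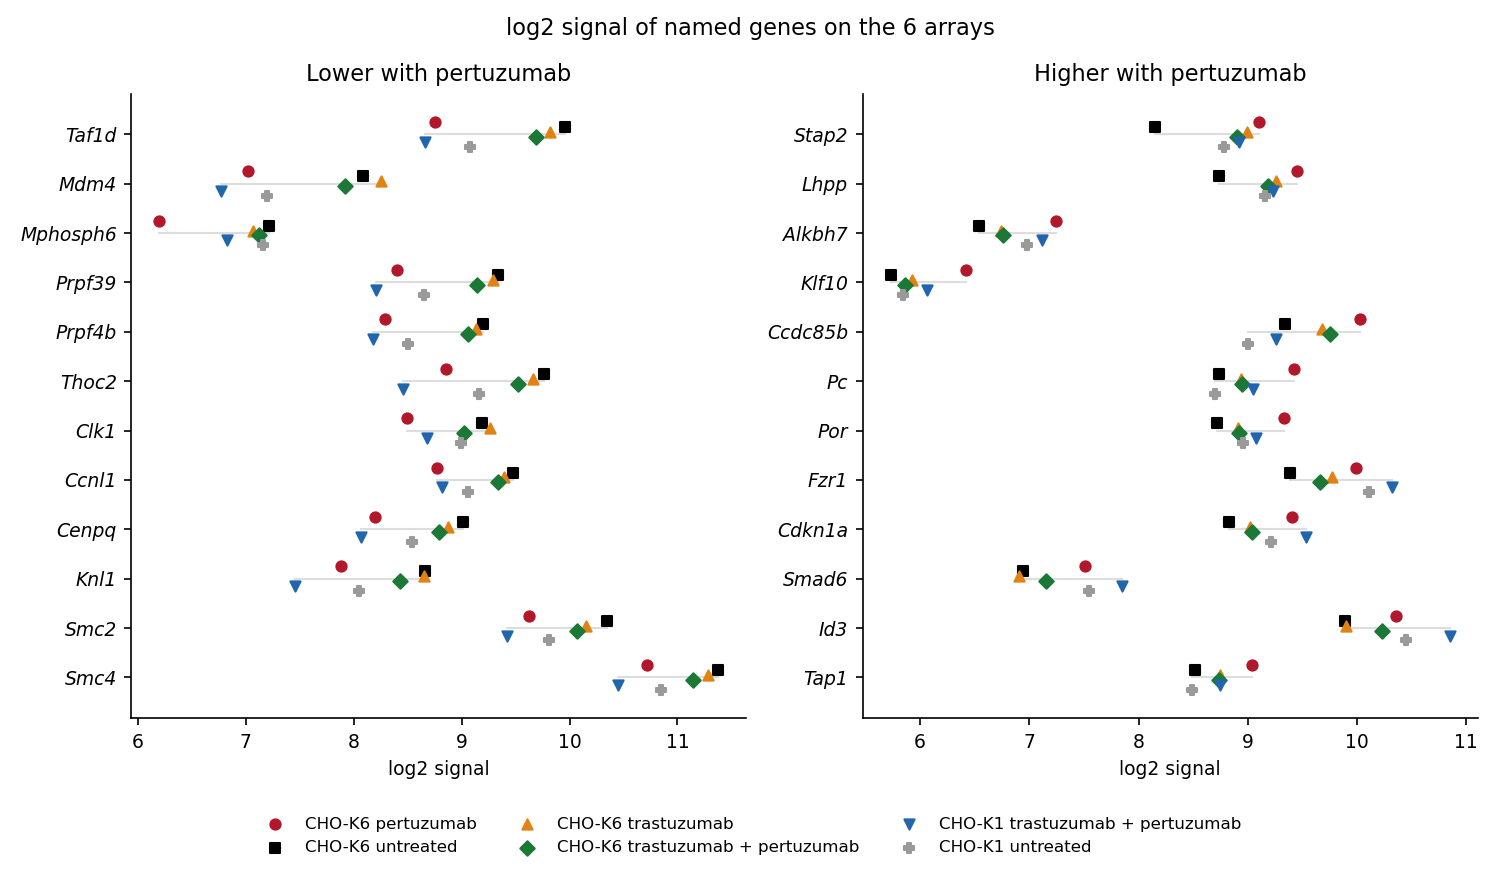
Log2 signal (horizontal axis) of 12 genes lower and 12 genes higher with pertuzumab than in untreated CHO-K6, 1 symbol for each of the 6 arrays. In the left panel the CHO-K6 pertuzumab array (red circles) lies left of the other 3 CHO-K6 arrays in every gene and mostly between the CHO-K1 arrays (blue and grey), as for Taf1d at 8.75 against 9.69 to 9.96. In the right panel it lies right of the other 3 CHO-K6 arrays in every gene.

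The difference was then set beside the other arrays. Among the 9073 genes the pertuzumab array was the lowest of the 4 CHO-K6 arrays in 2805 (30.9%) and the highest in 4342 (47.9%). Of the 152 lower genes 151 were lowest with pertuzumab among the 4, and 47 of them lay at least 1.5-fold below each of the other 3, with Taf1d, Mdm4, Prpf39 and Prpf4b as examples. All 30 higher genes were highest with pertuzumab, but none by 1.5-fold over each of the other 3. Since these genes were chosen by the pertuzumab and untreated arrays, such an extreme place of the pertuzumab array was nearly fixed by the choice. The SD over genes of the difference between the pertuzumab array and another CHO-K6 array was 0.207 to 0.252, against 0.119 to 0.125 between any other 2 CHO-K6 arrays. Pertuzumab and the combination differed by 1.5-fold in 68 genes, 5 of them higher and 63 lower with pertuzumab alone.

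A pair of comparisons share no array with pertuzumab against untreated CHO-K6. In CHO-K1, cells without the HER2 transgene, trastuzumab + pertuzumab against untreated gave 12 higher (0.132%) and 62 lower genes (0.683%) at 1.5-fold. In CHO-K6, trastuzumab + pertuzumab against trastuzumab, which differ by pertuzumab, gave 1 higher (0.011%) and 3 lower genes (0.0331%). The 152 genes lower with pertuzumab were below 0 in the CHO-K1 pair in 147 cases (96.7%, against 44.3% of all 9073 genes), with a median of -0.385 and 26 of them at 1.5-fold. In the CHO-K6 pair with trastuzumab they were below 0 in 130 cases (85.5%, against 51.4%), with a median of -0.12 and 1 of them at 1.5-fold. The 30 higher genes were above 0 in 28 cases in the CHO-K1 pair (against 53.5% of all genes) with a median of 0.21, and in 14 cases in the CHO-K6 pair (against 44.7%) with a median of -0.03, a share near that of all genes.

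Single genes, chosen for their fall with pertuzumab, are given as a description. Taf1d differed by -0.42 in the CHO-K1 pair and by -0.13 in the CHO-K6 pair with trastuzumab, Mdm4 by -0.43 and -0.33, Prpf39 by -0.44 and -0.15, Thoc2 by -0.70 and -0.14 and Knl1 by -0.59 and -0.22. Actr2, a subunit of the Arp2/3 complex of actin branching, differed by -0.84 with pertuzumab and by more, -0.96, in the CHO-K1 pair. Speckle proteins and splicing kinases had a median of -0.175 in the CHO-K1 pair and -0.07 in the CHO-K6 pair, SR proteins -0.11 and -0.005, and hnRNP proteins -0.065 and -0.01. Across the 9073 genes the pertuzumab difference correlated with that of the CHO-K1 pair with Pearson's r of 0.664 (Spearman's rho 0.659) and with that of the CHO-K6 pair with r of 0.297 (rho 0.305). These are correlations across genes, which are not independent replicates, and every array was read once. How far handling of single dishes or arrays entered these values was not tested.

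The median difference with pertuzumab was below 0 in genes higher in CHO-K6 than in CHO-K1 and above 0 in genes lower in CHO-K6. Few of the genes lower in CHO-K6 were called. Over all 9073 genes 1.68% were called lower and 0.331% higher with pertuzumab. The lines were compared on arrays outside the pertuzumab difference, first CHO-K6 against CHO-K1 with trastuzumab + pertuzumab in both. The CHO-K1 array of this measure also belongs to the CHO-K1 pair, which correlated with the pertuzumab difference (r of 0.664). A gene low on that array counts as higher in CHO-K6, and how far this entered the values was not tested. The 215 genes at least 2-fold higher in CHO-K6 had a median of -0.33 with pertuzumab, 178 of them (82.8%) were below 0, and 45 were lower and 0 higher by 1.5-fold. The 578 genes 1.5 to 2-fold higher in CHO-K6 had a median of -0.25 with 52 lower calls. The 7770 genes within 1.5-fold had a median of 0.07 with 24 higher and 53 lower calls. On the other side, the 425 genes 1.5 to 2-fold lower in CHO-K6 had a median of 0.23 and 373 of them (87.8%) were above 0, with 6 higher and 1 lower call. The 85 genes at least 2-fold lower had the same median, 0.23, with 0 higher calls and 1 lower call.

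The lines were then compared as CHO-K6 with trastuzumab against untreated CHO-K1, which leaves out the treated CHO-K1 array. The medians kept their signs and those below 0 were nearer to 0. They were -0.15 for 148 genes at least 2-fold higher in CHO-K6, -0.14 for 453 genes 1.5 to 2-fold higher, 0.07 within 1.5-fold, 0.21 for 296 genes 1.5 to 2-fold lower and 0.195 for 56 genes at least 2-fold lower. Across genes r was -0.518 with the first measure of the lines and -0.342 with the second. Of the 152 genes lower with pertuzumab, 146 (96.1%, against 46.8% of all genes) were higher in CHO-K6 by the first measure and 138 (90.8%, against 49.8%) by the second. Mphosph6 was an exception, with 7.07 in CHO-K6 with trastuzumab and 7.16 in untreated CHO-K1.

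**Figure D5:**
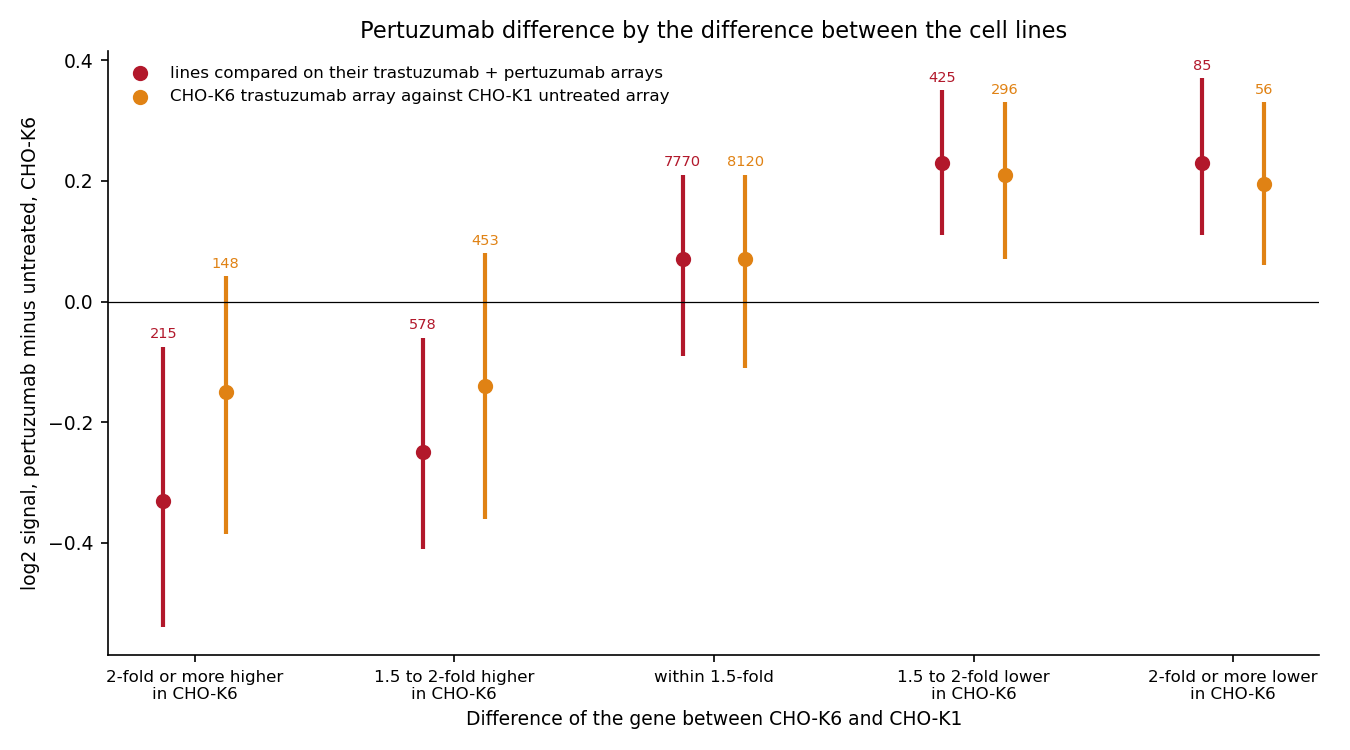
Difference in log2 signal between pertuzumab and untreated CHO-K6 (vertical axis, point at the median, bar from the first to the third quartile over genes) for genes binned by their difference between CHO-K6 and CHO-K1 (horizontal axis), with the number of genes above each bar. Lines were compared on the trastuzumab + pertuzumab arrays (red) or as CHO-K6 trastuzumab against CHO-K1 untreated (orange). The medians run from -0.33 to 0.23 with the first and from -0.15 to 0.21 with the second.

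Trastuzumab alone and the combination were read against the same untreated CHO-K6 array and so are not independent of the pertuzumab difference. They gave 4 higher and 5 lower genes and 1 higher and 4 lower genes at 1.5-fold. Side by side, for pertuzumab, trastuzumab and the combination, the differences from untreated were -1.21, -0.14 and -0.27 for Taf1d, -1.07, 0.16 and -0.17 for Mdm4, -0.91, -0.07 and -0.14 for Prpf4b, -0.78, -0.01 and -0.23 for Knl1, and 0.58, 0.19 and 0.21 for Cdkn1a. With Stap2 at 0.95, 0.84 and 0.75 all 3 antibody arrays were close to each other.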

How the data were processed

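RNA of 6 dishes was hybridized to Affymetrix CHO Gene ST arrays, 1 for each condition. The authors deposited log2 signals per transcript, made with the Transcriptome Analysis Console 3.0, while the submitters' processing notes list the Affymetrix Expression Console as well. The normalization is not given in the sources used here. Array medians lay between 5.89 and 5.91, with 48.8% to 49.0% of the transcripts at or above 6. The deposited log2 values were used unscaled, and the tables hold no comparisons made by the authors. The number of unassigned value columns was 0. A single array each limits the precision, which could not be estimated.

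Symbols came from the platform annotation, and 16394 transcripts were matched to RefSeq genes. For each gene with 1 symbol the brightest transcript over the 6 arrays was taken. Differences were computed with Python 3.11.15, NumPy 2.4.6 and pandas 2.3.3, called at 2-fold for transcripts and 1.5-fold for genes, and the steps were tested on simulated data. Named were the 25 highest and 25 lowest genes, genes with all transcripts past 1.5-fold, the list members past 1.5-fold and otherwise the 3 highest and 3 lowest, and a few fixed genes. Other genes named were chosen after their values were seen. The gene lists and the members were chosen with earlier results of these data known. Alternatives were the larger series matrix table, quantile normalization, centring along the signal, the trastuzumab array as the reference, other filters and thresholds, and the mean of transcripts. The second measure of the lines was added after the data were seen.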

Additional observations from a re-analysis of the deposited data

Results flagged for a closer look

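The larger of the deposited tables holds 1234 transcripts that the main table does not. Between pertuzumab and untreated CHO-K6, 210 of them (17.0%) differed by 2-fold or more, 82 higher and 128 lower. These transcripts entered none of the comparisons above. The same transcripts gave 183 changes (14.8%) in the CHO-K1 pair and 145 (11.8%) between trastuzumab + pertuzumab and trastuzumab in CHO-K6. The cause was not tested.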

How the results depend on the processing

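Against 157 lower and 19 higher transcripts at 2-fold, the series matrix table, with its 1234 more transcripts, gave 282 lower and 101 higher, a 1.5-fold threshold gave 874 lower and 419 higher, and transcripts with 1 symbol gave 26 lower and 5 higher. With a signal at or above 6 on 1 of the arrays at least, 1 was higher. Against 30 higher genes, centring along the signal gave 18 and the trastuzumab array as the reference gave 17, while the count of lower genes stayed within 1.5 times. With the trastuzumab array as the reference the list medians were -0.025 for the interferon response (0.105 above), 0.12 for immediate early genes, 0.065 for PI3K-AKT and 0.03 for the anaphase-promoting complex. The mean in place of the median was 0.0858 for PI3K-AKT, and members at or above 6 put ERBB receptors and ligands at 0.12. The medians of speckle proteins ranged from -0.345 to -0.28, of SR proteins from -0.28 to -0.15, of mitotic genes from -0.21 to -0.11 and of hnRNP proteins from -0.185 to -0.085. Of 109 named genes 106 kept their direction against the trastuzumab array, and 109 under quantile normalization, centring and the mean of transcripts, but 60 moved by over 0.1 against the trastuzumab array and 13 with the mean of transcripts. No paired analysis was possible because each condition has 1 array. Without replicates no value has an error, and a difference between 2 dishes, whatever its source, cannot be told apart from that of the antibody.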

Other observations

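Among gene families grouped by name after the values were seen, the 4 Cdc42ep genes, effectors of Cdc42, were all higher with pertuzumab, with a median of 0.365 and Cdc42ep4 at 0.61. The 3 measured Lamtor genes, which encode the Ragulator complex on lysosomes, were higher too, with Lamtor4 at 0.55. Of 151 Zfp and Znf zinc finger genes 76 were above 0 and 70 below, and of the 126 with a mean log2 signal at or above 6 8 fell by 1.5-fold or more (1.68% of all genes did), among them Znf638 at -0.81 and Znf280d at -0.75, and 1, Znf428 at 0.61, rose (0.331% of all genes). In the N-glycan list 37 of 49 genes were above 0 with a median of 0.15. Alg3, a mannosyltransferase, was at 0.56, and Cmah, the hydroxylase that makes a sialic acid lost in humans, fell with 6.63 with pertuzumab and 7.27 untreated.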
